A study of Homo sapiens with 6 samples.

Results

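Small nucleolar RNA host genes were followed in SKM-1 cells, an established human acute myeloid leukaemia line, under 2 drug treatments and their combination. The 9 genes were taken by name: GAS5, SNHG1, SNHG5, SNHG6, SNHG8, SNHG12, SNHG15, SNHG16 and ZFAS1. They are 9 of the 26704 genes listed in the 3 deposited tables, and each has a value in all 6 libraries. Of the 6 libraries, 2 came from untreated cells, 2 from cells given BOR, 1 from cells given VEM and 1 from cells given VEM and BOR together (VEM+BOR). The title of the series names vemurafenib, a RAF kinase inhibitor. The labels do not spell out BOR and give no dose or time for either drug. All groups share the same cell line and no label names a vehicle. No label says that replicate libraries stem from separate cultures, and p-values then measure only a spread between libraries that may be technical. All 8 myeloid markers looked at, among them MPO and PRTN3, were listed in all 3 tables with a mean of at least 10, and the T-cell genes CD3D, CD3E and CD3G were listed in none of the 3 tables.

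A small nucleolar RNA (snoRNA) guides a chemical change on ribosomal RNA. Box C/D snoRNAs guide methylation of the ribose, and box H/ACA snoRNAs guide conversion of uridine to pseudouridine. Most human snoRNAs are cut out of the introns of other genes. In a host gene such as GAS5 the snoRNA is the conserved part, and the spliced exons form a transcript without a long open reading frame. Many hosts start with a C followed by pyrimidines, the 5′ terminal oligopyrimidine (TOP) motif that they share with messenger RNAs of ribosomal proteins. Their spliced transcripts are loaded onto ribosomes and degraded by nonsense-mediated decay, so that a block of translation raises their level. These libraries were made from RNA with a poly-A tail, which snoRNAs lack. The values below count reads per host gene, and spliced and unspliced host RNA were not told apart.

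The starts of host transcripts are shown because the TOP motif, where a host has it, lies there. Each line holds 35 bases before the annotated start and 30 from it on, on the strand of the gene, from RefSeq (GRCh38.p14). Capitals mark a C at the first transcribed base and the unbroken run of C and T that follows it.
SNHG5: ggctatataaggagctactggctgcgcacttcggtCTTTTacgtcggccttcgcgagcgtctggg
SNHG12: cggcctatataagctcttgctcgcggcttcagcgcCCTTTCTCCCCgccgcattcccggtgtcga
ZFAS1: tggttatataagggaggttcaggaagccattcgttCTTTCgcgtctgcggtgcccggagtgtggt
SNHG8: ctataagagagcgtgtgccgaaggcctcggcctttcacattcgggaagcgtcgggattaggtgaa
The windows lie at chr6:85678704-85678768 (minus strand), chr1:28581844-28581908 (minus), chr20:49278607-49278671 (plus) and chr4:118278727-118278791 (plus). A RefSeq promoter was used for 7 of the 9 genes. A start with C and at least 3 pyrimidines was found in 3 of the 7, SNHG5, SNHG12 and ZFAS1, against 5.45% of 35116 promoters and 57.6% of 85 promoters of ribosomal protein genes. The letters TATAA, searched on the strand of the gene between 40 and 16 bases before the start, were found in 4 of the 7, the genes printed above, against 3.91% of all promoters. Both features stood together in 3 of the 7 and in 0.14% of all promoters.

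A gene has several annotated starts. The first 30 bases of GENCODE 29 transcripts (GRCh38) are printed, with the same use of capitals, for 4 hosts that have the motif at a GENCODE start but not at the RefSeq start, and for SNHG15, which has no such start. The sequence of SNHG6 was not analysed here.
GAS5: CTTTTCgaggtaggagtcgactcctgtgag
SNHG16: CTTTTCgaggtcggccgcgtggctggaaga
SNHG8: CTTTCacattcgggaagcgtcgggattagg
SNHG1: CTCCTgtctgcaggatttacgcgcacgttg
SNHG15: cggcgcagcgcgcggcgtcagtcttggctg
They begin at chr1:173867960-173867989 (minus strand), chr17:76557769-76557798 (plus), chr4:118278758-118278787 (plus), chr11:62855450-62855479 (minus) and chr7:44986640-44986669 (minus). GAS5 and SNHG16 have their first 11 bases in common. Transcripts that begin with the motif made up 6 of 23 for GAS5, 1 of 24 for SNHG1, 4 of 23 for SNHG5, 1 of 5 for SNHG8, 4 of 17 for SNHG12, 2 of 8 for SNHG16 and 3 of 10 for ZFAS1. SNHG15 had 0 of 10, and over all GENCODE transcripts the share was 3.81%. A match describes the letters at an annotated start. The files hold no read positions, and which start the SKM-1 cells used was not tested.

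The snoRNAs inside these genes differ in class. GENCODE places 22 snoRNA genes within 8 of the hosts and on their strand: 7 in SNHG1, 5 in SNHG12, 3 each in SNHG16 and ZFAS1, and 1 each in SNHG5, SNHG6, SNHG8 and SNHG15. Those in SNHG1, SNHG5, SNHG6, SNHG16 and ZFAS1 that carry a name are box C/D snoRNAs, as are those GAS5 is known for. SNHG8 holds the box H/ACA snoRNA SNORA24 and SNHG15 holds SNORA9, while SNHG12 holds both classes. A box C/D snoRNA from SNHG16 and one from ZFAS1 show what the introns carry, written as DNA with the letters TGATGA of box C and CTGA of box D in capitals.
SNORD1B: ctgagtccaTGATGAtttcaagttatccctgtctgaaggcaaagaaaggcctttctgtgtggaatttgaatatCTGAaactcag
SNORD12C: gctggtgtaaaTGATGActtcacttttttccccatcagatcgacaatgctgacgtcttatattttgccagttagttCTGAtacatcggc
They lie at chr17:76561109-76561192 and chr20:49278940-49279028 on the plus strand (GRCh38). With both boxes searched on this strand within 20 bases of the ends, 64.9% of 288 SNORD transcripts in GENCODE hold both. Only 4 of the 22 hosted snoRNAs are listed in the tables, SNORD99, SNORD1B, SNORD12B and SNORD12C. Each had at most 13 reads in the 5 libraries whose reads were recovered, and their deposited values in VEM were no higher than 2.97. No level is given for the snoRNAs.

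Values are read counts brought to 1 scale over the 6 libraries by median-of-ratios factors, called normalised read counts below. BOR 2 stood apart from the other libraries over all genes. The log2 difference from the untreated mean had an SD of 1.46 over 15438 genes in BOR 2, against 0.38 in BOR 1, 0.50 in VEM and 0.53 in VEM+BOR. Scaling matters for that library: the median gene of BOR 2 lay at 0.04 by median of ratios, at -0.07 by TMM (a trimmed mean) and at -0.55 by library total. In BOR 2 long genes were lower than short ones, with a median of -0.41 for genes of 7822 bases of exon or more and medians of 0.14 to 0.27 in the 3 classes from 53 to 5436 bases that hold all 9 host genes. Whether this length pattern bears on the host genes was not tested. The summed level of the 8 myeloid markers ran from 98939 to 142971 in the untreated and BOR libraries and was 47535 in VEM and 46205 in VEM+BOR. Fewer cells of a kind and less RNA per cell cannot be told apart in such samples.

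The host genes were abundant in untreated cells, and their levels spanned more than an order of magnitude once set per kilobase of exon. The exon length is the annotated one of each gene, and the order below depends on it. Which of the annotated exons these cells used was not tested. SNHG6 stood highest, at 1571 and 1988 normalised reads per kilobase in untreated 1 and 2. SNHG8 followed at 1070.4 and 1579, and GAS5 at 982 and 1404. The ranges of these 3 neighbours overlapped, while their order was the same within each library. SNHG1 came next at 384 and 758, below GAS5 in both libraries. Its range overlapped with those of SNHG15 at 338 and 557 and ZFAS1 at 324 and 450.3. Within each library these 3 also kept their order. The lowest 3 were SNHG5 at 140.1 and 259, SNHG12 at 114 and 196 and SNHG16 at 136 and 138. The range of SNHG12 overlapped with each of the other 2, while SNHG5 was above both SNHG12 and SNHG16 in each library. SNHG12 was below SNHG16 in untreated 1 and above it in untreated 2. ZFAS1 and SNHG5, neighbours in the order, did not overlap.

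The untreated pair itself differed in a common direction. All 9 host genes were higher in untreated 2 than in untreated 1, which held for 50.4% of all genes. The log2 difference ran from 0.02 for SNHG16 to 0.98 for SNHG1, with a median of 0.56. Scaled to library total, 8 of the 9 were higher in untreated 2, against 36.1% of all genes, SNHG16 being the exception at -0.17. This spread is what a treated library has to exceed.

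**Figure D1:**
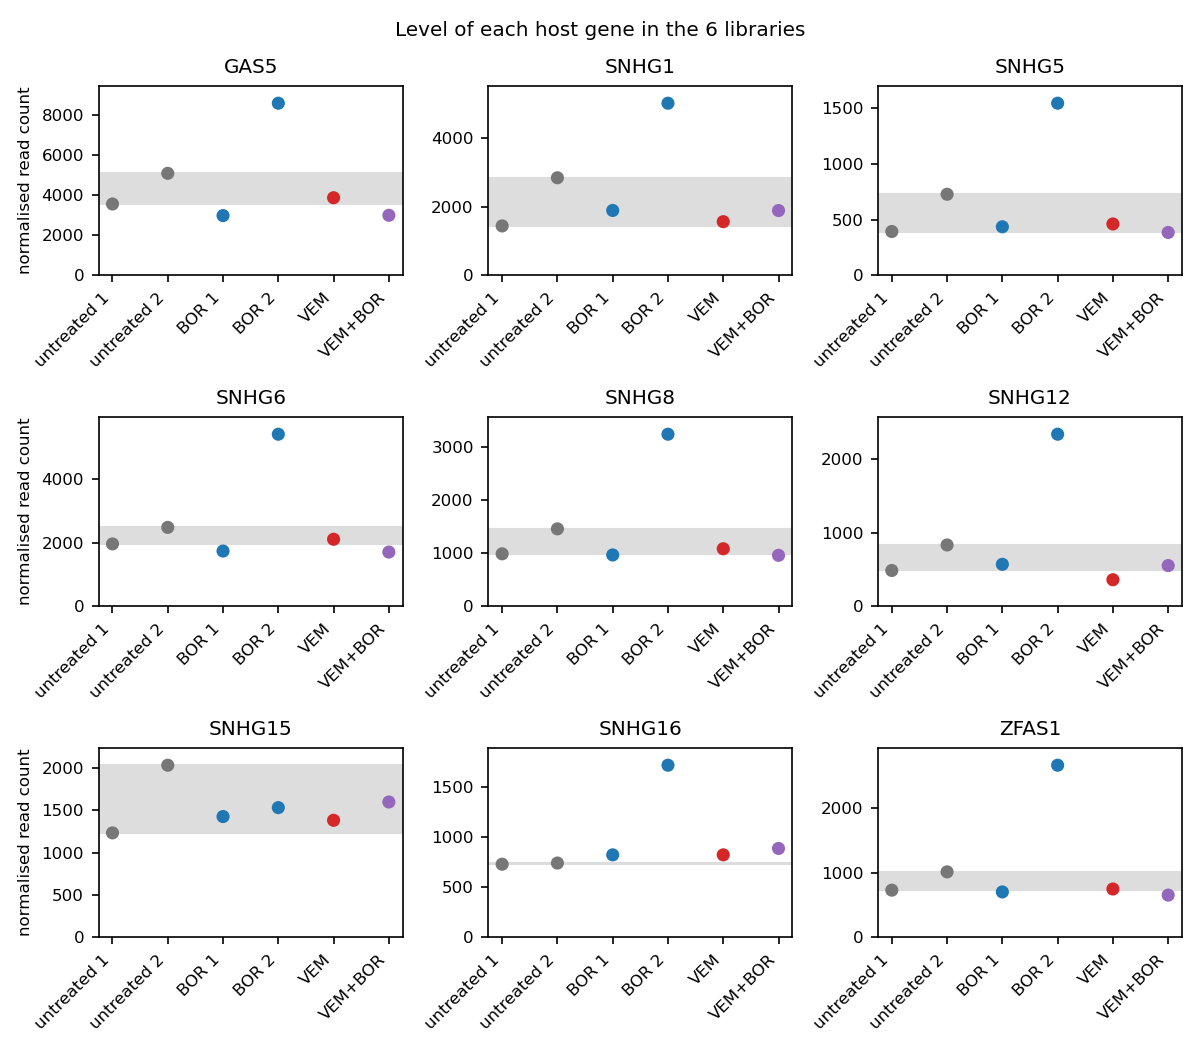
Normalised read counts of the 9 host genes, one panel per gene with its own linear axis from 0, in the 6 libraries; each point is 1 library and the grey band is the range of the 2 untreated libraries. BOR 2 lies far above the band in 8 panels and inside it for SNHG15, while the band of SNHG16 is narrow and all 4 treated libraries lie above it.

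Cells given BOR were compared with untreated cells first. The 2 BOR libraries differed from each other for most host genes. BOR 2 was the highest of the 6 libraries for 8 of the 9. For the same genes except SNHG16, BOR 1 lay within or below the untreated range. BOR 1 was above both untreated libraries for 1 of the 9 and below both for 4, against 29.9% and 20.7% of all genes. BOR 2 exceeded the untreated mean of these 8 by 1.99-fold (GAS5) to 3.54-fold (SNHG12). Being above both untreated libraries in BOR 2 held for 43.8% of all genes, and being highest of the 6 for 39.3%.

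Among hosts of box C/D snoRNAs, GAS5, a transcript named for its rise in growth-arrested cells, had 3565 and 5098 normalised reads in the untreated libraries, 2985 in BOR 1 and 8602 in BOR 2. BOR 1 was the lowest of the 6 libraries (7.74% of all genes), close to VEM+BOR at 3001, and BOR 2 the highest. Under library total VEM+BOR was the lowest for GAS5. SNHG1, whose introns hold SNORD25 to SNORD28 and SNORD30, had 1442 and 2848 in untreated cells, 1894 in BOR 1 and 5023 in BOR 2. BOR 1 fell between the untreated libraries and BOR 2 above them. SNHG5, host of SNORD50B, had 393 and 728 against 436 and 1545, with the same order.

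SNHG6, host of SNORD87, had 1959 and 2479 normalised reads in untreated cells, 1736 in BOR 1 and 5403 in BOR 2. ZFAS1, which starts next to ZNFX1 on the opposite strand, had 728 and 1010.1 against 700.6 and 2656. In both genes BOR 1 was below and BOR 2 above both untreated libraries. SNHG16, host of the SNORD1 snoRNAs, had 730.5 and 742 in untreated cells, 824 in BOR 1 and 1719 in BOR 2, and is the only one of the 9 with both BOR libraries above both untreated ones. That pattern held for 11.5% of all genes, so that 1 of 9 is near the background.

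Of the hosts with H/ACA snoRNAs, SNHG8 had 988 and 1457 normalised reads in untreated cells, 966 in BOR 1 and 3237 in BOR 2. SNHG12, which holds snoRNAs of both classes, had 488 and 835 against 572 and 2342, the largest difference from the untreated mean in BOR 2 among the 9. SNHG15 did not follow this order. It had 1233 and 2032 in untreated cells and 1426 and 1531 in BOR 1 and 2, so that both BOR libraries lay inside the untreated range, with a ratio of BOR 2 to BOR 1 of 1.07. For the other 8 genes that ratio was 2.09 (SNHG16) to 4.10 (SNHG12).

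On the log2 scale, BOR 2 differed from the untreated mean by 1.01 to 1.87 in the 8 genes without SNHG15, with a median of 1.37, and by -0.05 in SNHG15. SNHG15 was set apart after the values were seen. Scaled to library total the 8 genes lay between 0.41 (GAS5) and 1.28 (SNHG12). Of all 9 host genes, 8 were then above both untreated libraries and 1 below both, against 23.3% and 61.3% of all genes. SNHG15 was then 0.65 lower than the untreated mean and below both untreated libraries. Whether SNHG15 lay inside the untreated range in BOR 2 thus changed with the scaling, while its distance from the other 8 was present under median of ratios, library total and TMM.

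**Figure D2:**
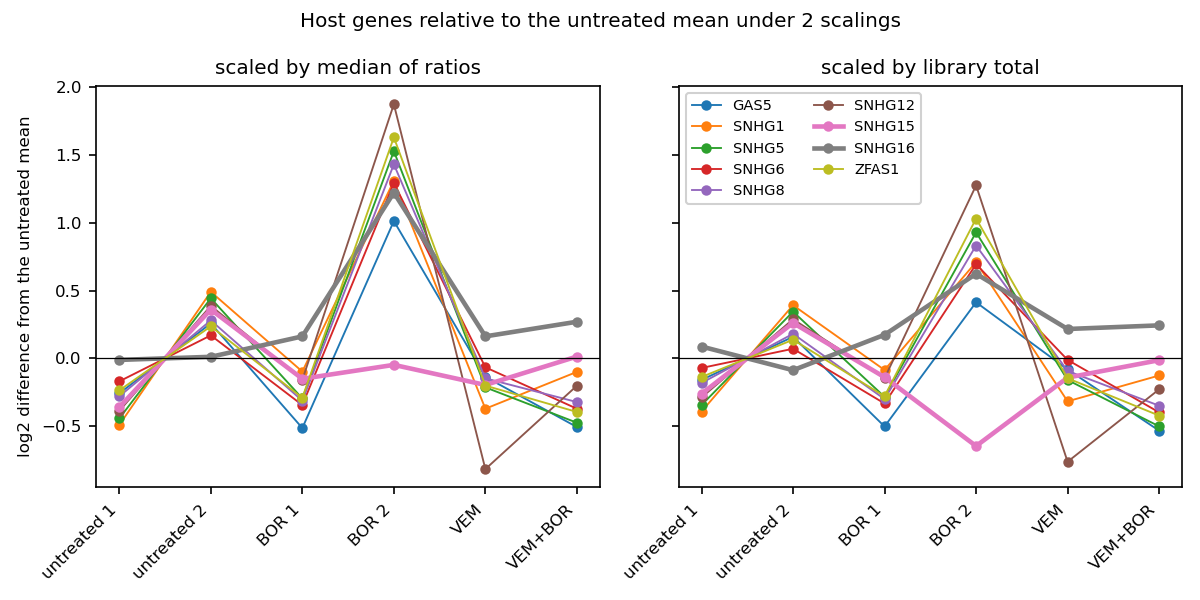
Log2 difference of each host gene from its untreated mean in the 6 libraries, scaled by median of ratios (left) and by library total (right); each line is 1 gene and joins libraries that have no order, with SNHG15 and SNHG16 drawn thick. Under either scaling 8 lines peak at BOR 2 and SNHG15 does not, at -0.05 on the left and -0.65 on the right.

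With both BOR libraries in the comparison, limma (a linear model with a spread moderated over genes) called 0 of the 9 host genes after Benjamini-Hochberg adjustment, and 0% of 15382 genes overall. Unadjusted p was under 0.05 for 38 genes in the table and for 0 of the 9. edgeR on the recovered reads also called 0 genes, and DESeq2 called 33, of which 0 were host genes. Estimated log2 changes ran from -0.10 for SNHG15 (SE 0.47, 95% interval -1.24 to 1.05) to 0.86 for SNHG12 (SE 0.76, interval -0.97 to 2.69). All 9 intervals take in both 0 and a rise of 1 on the log2 scale.

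How far the 2 BOR libraries diverge shows when each is set alone against the untreated pair. Without BOR 1, limma called 6 of the 9 host genes higher: SNHG5, SNHG6, SNHG8, SNHG12, SNHG16 and ZFAS1, with log2 changes of 1.22 to 1.88 and adjusted p of 0.00779 (SNHG12) to 0.0299 (SNHG6). GAS5 stood at 1.02 with a limma adjusted p of 0.103, SNHG1 at 1.31 with 0.0565 and SNHG15 at -0.05 with 0.945. In that comparison 9.74% of 15371 genes were called higher and 16.3% lower, and the lone library was assumed to vary like the untreated pair. Without BOR 2, 8 of the 9 estimates were negative, from -0.09 (SNHG1) to -0.51 (GAS5), and SNHG16 was 0.17.

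VEM was measured in 1 library, and 7 of the 9 host genes in it lay inside the untreated range. GAS5 had 3878 normalised reads, SNHG1 1566, SNHG5 461, SNHG6 2106, SNHG8 1083, SNHG15 1382 and ZFAS1 746, each nearer to untreated 1 than to untreated 2. SNHG12 had its lowest level of the 6 libraries here, at 362 against 488 and 835 in untreated cells, as 9.56% of all genes did. SNHG16 was above both, at 824 against 730.5 and 742. Being below both untreated libraries held for 27.3% of all genes and being above both for 30.9%. Under library total ZFAS1 also lay below both.

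The VEM test rests on 1 library that was assumed to vary like the untreated pair. limma called 0 of the 9 host genes, against 0.0446% of 15689 genes (6 higher and 1 lower), and unadjusted p was under 0.05 for 399 genes and for 0 of the 9. SNHG12 had the largest estimate, -0.82 (SE 0.42, 95% interval -1.69 to 0.05, limma unadjusted p of 0.0625). In 1 fit over the other libraries it was -1.20 without untreated 1 and -0.43 without untreated 2. The other 8 estimates ran from -0.38 (SNHG1) to 0.16 (SNHG16). No count test was made for VEM, whose reads were not worked out.

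In VEM+BOR 5 of the 9 host genes lay below both untreated libraries. GAS5 had 3001 normalised reads, SNHG5 385, SNHG6 1704, SNHG8 959.5 and ZFAS1 652, and lying below both held for 26.6% of all genes. The margins below untreated 1 were narrow for SNHG5 (385 against 393) and SNHG8 (959.5 against 988). SNHG1 at 1891, SNHG12 at 555 and SNHG15 at 1598 lay between the untreated libraries, and SNHG16 at 888 lay above both, as 31.5% of all genes did. For 4 of the 9, SNHG5, SNHG6, SNHG8 and ZFAS1, VEM+BOR was the lowest of the 6 libraries, against 9.9% of all genes. That count was 5 under library total (8.19% of all genes) and 2 under TMM (8.74%). Under TMM, BOR 1 was the lowest for 3 (9.07%).

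limma called 0 of the 9 host genes for VEM+BOR, against 0.192% of 15606 genes (27 higher and 3 lower), and unadjusted p was under 0.05 for 469 genes and for 0 of the 9. edgeR called 85 genes and DESeq2 63, with 0 host genes in either. Estimates were -0.52 for GAS5 (SE 0.40, 95% interval -1.36 to 0.32), -0.49 for SNHG5, -0.41 for ZFAS1, -0.38 for SNHG6, -0.34 for SNHG8, -0.21 for SNHG12, -0.11 for SNHG1, 0.00 for SNHG15 and 0.26 for SNHG16. Without untreated 2, in 1 fit over the other libraries, the estimates were smaller, at -0.25 for GAS5, -0.032 for SNHG5, -0.16 for ZFAS1, -0.20 for SNHG6 and -0.042 for SNHG8. On the scale of all 6 libraries, the gap between the 2 untreated libraries was 0.52 for GAS5. VEM+BOR differed from the untreated mean of GAS5 by -0.51. The difference was larger in size than the gap for SNHG6 (-0.37 against 0.34) and SNHG16 (0.27 against 0.02), and smaller for the rest. A difference smaller than the gap can still lie outside the untreated range, as it did for GAS5, SNHG5, SNHG8 and ZFAS1. The share of all genes was not worked out.

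Both libraries with VEM were also set as 1 group against the untreated pair. limma again called 0 of the 9, against 0.22% of 15442 genes, and unadjusted p was under 0.05 for 965 genes and for 0 of the 9. The largest estimate was that of SNHG12, at -0.51 (SE 0.31, 95% interval -1.22 to 0.20). SNHG12 had 362 normalised reads in VEM and 555 in VEM+BOR, and the latter lay inside the untreated range. Without untreated 1 that estimate was -0.90 and without untreated 2 it was -0.12. Also without untreated 1, limma called 1 of the 9, SNHG1, at -0.73 with an adjusted p of 0.0444, and 5.26% of all 15296 genes, so that 1 of 9 is near the background. Without untreated 2 the estimate for SNHG1 was 0.26. The call and the sign for SNHG1 thus turn on which untreated library is used.

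**Figure D3:**
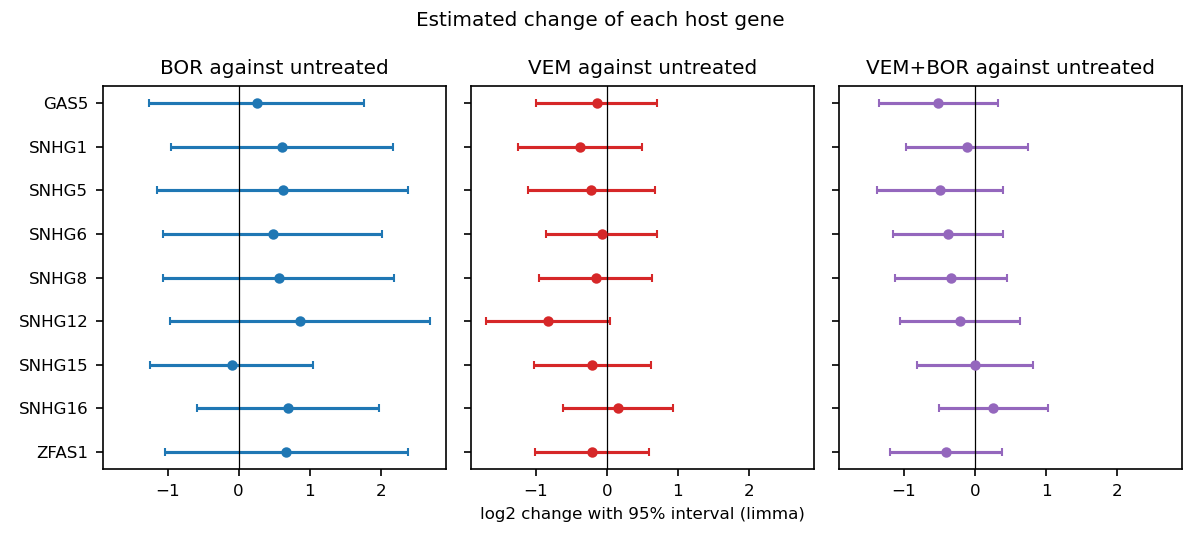
Estimated log2 change of each host gene in BOR (2 libraries against 2), VEM and VEM+BOR (1 library against 2 each), from limma; points are estimates and bars are 95% intervals. All 27 intervals include 0, and that of SNHG12 in VEM reaches 0.05 at its upper end.

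For SNHG16, and for it alone among the 9, every treated library lay above both untreated ones. Its untreated libraries were nearly equal, at 730.5 and 742 normalised reads. BOR 1 and VEM were both at 824, VEM+BOR at 888 and BOR 2 at 1719. Having all 4 treated libraries above both untreated ones held for 6.3% of genes, so that 1 of 9 is near the background. The share was 3.68% and 5.77% under library total and TMM, where SNHG16 kept the pattern. The mean log2 level was 0.45 higher in the 4 treated than in the 2 untreated libraries. A two-sided exact permutation test gave p = 0.133, the smallest value that 4 libraries against 2 allow, and 1 after Benjamini-Hochberg adjustment over the 9 genes tested this way. Its differences outside BOR 2 were small, 0.16 in BOR 1, 0.16 in VEM and 0.27 in VEM+BOR on the log2 scale. By median of ratios each is larger than the untreated gap of 0.02. Scaled to library total the gap was -0.17, and the differences were 0.17 in BOR 1, 0.22 in VEM and 0.24 in VEM+BOR. That of BOR 1 then did not exceed the gap in size. The 4 treated libraries do not share a treatment, so this is a statement about these libraries.

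Other genes overlap some hosts, and the protocol names no step that marks strand. Their reads cannot then be told apart where the genes overlap. GAS5 shares 801 bases with ZBTB37 on the other strand, which encodes a zinc finger protein. ZBTB37 had 440 and 274 normalised reads in untreated cells and 74.7 in BOR 2, where GAS5 was highest. ZFAS1 shares 249 bases with ZNFX1, at 785 and 729 in untreated cells and 984 in BOR 2. SNHG12 shares 8 bases with TRNAU1AP, and SNHG6 shares 365 with MCMDC2, which had at most 19 reads in the libraries whose reads were recovered.

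Further host genes were read from a list. Of 17 other non-coding hosts listed in all tables, 16 had a mean of at least 10, and limma called 0 of 16 in each comparison. Their median log2 difference in BOR 2 was 0.54, with 8 above and 4 below both untreated libraries, where all genes had 43.8% above and 41.7% below. SNHG7 was among the high ones, at 8717 normalised reads against 2432 and 4753, and EPB41L4A-AS1 at 1870.0 against 468 and 689.9. SNHG4 was low at 582 against 883 and 1716, as was SNHG14, the long host of the Prader-Willi region snoRNAs, at 201 against 560 and 308. These 4 were picked after their values were seen. The high level in BOR 2 was therefore not shared by all non-coding hosts. In VEM+BOR, SNHG19 had 132 normalised reads against 240 and 366, a log2 change of -1.17 (SE 0.46, limma unadjusted p of 0.0194, adjusted p of 1.0).

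Protein-coding genes host snoRNAs too, and 35 of them were measured. Their median in BOR 2 was 1.12, with 27 above and 5 below both untreated libraries, again against 43.8% and 41.7% of all genes. The list holds 19 ribosomal protein genes, and these had a median of 1.17 with 19 of 19 above both. The other 16 hosts had a median of 0.36, with 8 above and 5 below, near the shares of all genes. Among these 16, EEF2, a translation elongation factor, was 1.56 above its untreated mean on the log2 scale, the highest of all 35, and TPT1 was 1.38 above. NCL, which encodes the nucleolar protein nucleolin, had 8068 normalised reads in BOR 2 against 18450 and 34246, and IPO7, a nuclear import receptor, had 596 against 3745 and 3424. EEF2 and TPT1 were picked after their values were seen. The division into ribosomal protein genes and others was also made after the values were seen, and the difference between these 2 sets was not tested.

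Ribosomal protein genes, which share the TOP start with many hosts, had medians near those of the 9 in each library. Over 83 such genes the median log2 difference was 1.09 in BOR 2, -0.34 in BOR 1, -0.20 in VEM and -0.31 in VEM+BOR. For the 9 host genes the medians were 1.31, -0.29, -0.20 and -0.32, and for all genes 0.04, 0.05, 0.01 and 0.02. In untreated 1 and 2 the medians were -0.25 and 0.25 for the ribosomal protein genes and -0.28 and 0.28 for the 9. For both sets the medians in BOR 1, VEM and VEM+BOR thus lay near those of untreated 1. Other hosts were near them too in these libraries, at -0.37, -0.16 and -0.41 for the other non-coding hosts and -0.24, -0.20 and -0.27 for the protein-coding hosts. Genes of proteins that assemble with snoRNAs had -0.07, -0.17 and -0.01, and factors of nonsense-mediated decay 0.0008, -0.18 and 0.01. In VEM+BOR 55 of 83 ribosomal protein genes lay below both untreated libraries, against 26.6% of all genes. In BOR 2, 77 of 83 lay above both, against 43.8% of all genes. Other long non-coding genes of at least 300 normalised reads did not have this level: their median over 82 genes was -0.68 in BOR 2, with 19 (23.2%) above both untreated libraries. No test sets these lists against each other.

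**Figure D4:**
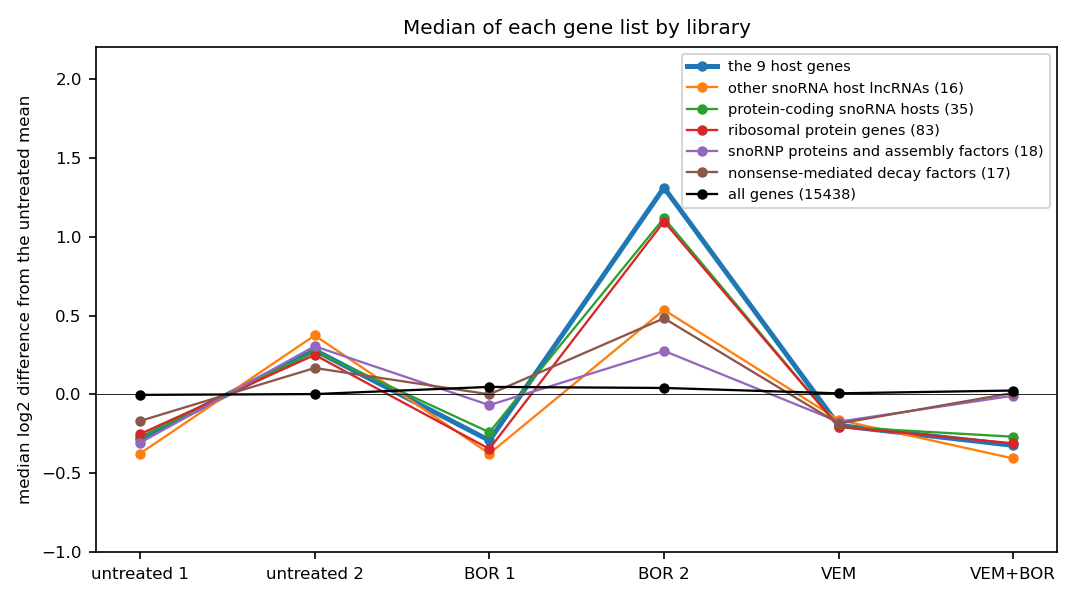
Median log2 difference from the untreated mean in each of the 6 libraries for the 9 host genes, 5 other gene lists and all genes with a mean of at least 10; lines join libraries that have no order, and numbers in brackets are genes measured. In BOR 2 the host genes (1.31), the protein-coding hosts (1.12) and the ribosomal protein genes (1.09) lie above the other lists and above all genes (0.04).

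Proteins that assemble with snoRNAs were read from 18 genes, and limma called 0 of 18 in each comparison. Their median in BOR 2 was 0.28, with 9 above and 6 below both untreated libraries, not far from the 43.8% and 41.7% of all genes. NOP58, a core protein of box C/D particles, had 2269 and 3762 normalised reads in untreated cells, 2594 in BOR 1, 339 in BOR 2, 1290 in VEM and 2010 in VEM+BOR. It was below both untreated libraries in BOR 2, VEM and VEM+BOR. Its log2 change in VEM was -1.19 (SE 0.40, limma unadjusted p of 0.00762, adjusted p of 1.0). NOP56, its partner in the particle, had 3832 and 8302 in untreated cells, 6253 in BOR 2 and 3415 in VEM.

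Factors of nonsense-mediated decay, the route by which spliced host transcripts are degraded, were read from 17 genes, with 0 of 17 called by limma in each comparison. Their median was 0.48 in BOR 2, with 10 above and 5 below both untreated libraries (43.8% and 41.7% of all genes). Among the high ones, UPF1 had 8367 normalised reads in BOR 2 against 3783 and 4303 in untreated cells. EIF4A3 had 9677 against 2175 and 3250. SMG1 and UPF2 were among the low ones. SMG1, the kinase that acts on UPF1, had 2162 and 1285 normalised reads in untreated cells, 2089 in BOR 1, 264 in BOR 2, 701 in VEM and 1499 in VEM+BOR. UPF2, which binds UPF1, had 583 and 571, then 598, 77.4, 246 and 415 in the same order. Both SMG1 and UPF2 were lowest in BOR 2, as 37.5% of all genes were, and next lowest in VEM. Their log2 changes in VEM were -1.25 for SMG1 (limma unadjusted p of 0.00461, adjusted p of 0.841) and -1.23 for UPF2 (limma unadjusted p of 0.00583, adjusted p of 0.989). Whether these levels bear on the host genes was not tested.

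Genes most like the mean of the 9 hosts were sought among 11016 genes. Over the 6 libraries these were RPS3A, THG1L, TBCA, RPL23 and SIRT6, with a Pearson correlation of 0.9998 (RPS3A) to 0.9991 (SIRT6). RPS3A, a ribosomal protein gene that also hosts a snoRNA, had 16625 and 22893 normalised reads in untreated cells, 17566 in BOR 1, 38076 in BOR 2, 17492 in VEM and 17261 in VEM+BOR. Such values rest largely on BOR 2, and all genes share the same libraries. Without BOR 2 the 5 most alike over 5 libraries were ATP5PF, UQCRB, RPS3A, EIF2B5 and HNRNPD, so that RPS3A was in both sets. Among the hosts, the correlation of 1 gene with the mean of the other 8 over 6 libraries was 0.85 to 0.99 for 8 genes and 0.31 for SNHG15. Over the 5 libraries without BOR 2 it was 0.88 for SNHG15, -0.46 for SNHG16 and 0.69 to 0.96 for the other 7, so that the gene that stood apart changed with that library.

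In the authors' deposited table the adjusted p was under 0.05 for 0 of the 9 in BOR, VEM and VEM+BOR, and the lowest unadjusted p was 0.0685, for SNHG12 in VEM. Log2 fold changes in the authors' deposited table ran from -0.14 to 1.14 in BOR, with SNHG15 lowest and SNHG12 highest, from -0.88 to 0.16 in VEM and from -0.56 to 0.26 in VEM+BOR.

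The genes lie on 8 chromosomes in the tables' coordinates, which equal GENCODE 29 on GRCh38 for 26676 of 26704 genes. GAS5 (ENSG00000234741) is at chr1:173863900-173868882 and SNHG12 (ENSG00000197989) at chr1:28578538-28583132. SNHG5 (ENSG00000203875) is at chr6:85660950-85678748 and SNHG15 (ENSG00000232956) at chr7:44983023-44986961. SNHG1 (ENSG00000255717) is at chr11:62851988-62855914, and these 5 are on the minus strand, as is SNHG6 (ENSG00000245910) on chromosome 8. On the plus strand are SNHG8 (ENSG00000269893) at chr4:118278709-118279823, SNHG16 (ENSG00000163597) at chr17:76557766-76565348 and ZFAS1 (ENSG00000177410) at chr20:49278178-49295738. All 9 are annotated as non-coding, with 923 bases of exon in SNHG8 to 5362 in SNHG16.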

How the data were processed

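RNA of 6 SKM-1 libraries was sequenced in 150 bp pairs after poly-T bead selection, per the labels' protocols. The submitters' processing notes name HISAT2 2.0.5, CASAVA, edgeR 3.22.5, DESeq2 1.20.0 and featureCounts 1.5.0-p3 without roles. Genome build was not given in the sources used here. In each of 3 tables the authors deposited a normalised signal, found to be reads over 1 factor for each library, with a scaling of its own. The authors also deposited log2 fold changes, p-values and adjusted p-values, used only where their table is named. Values were whole multiples of 1 step within 0.001 for 100% of genes, which gave back 17371022 to 18507606 reads in 5 libraries. The values of VEM were also whole multiples of 1 step, 0.991, but its reads were not worked out, so its depth is not given.

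The 9 genes and all lists were chosen with earlier results of these data known. Tests used limma 3.58.1 (R 4.3.3) within 1 table, on log2(value + 1), with genes of a mean under 10 left out, called at a Benjamini-Hochberg adjusted p under 0.05 over all genes, two-sided. Such fold changes understate those of low genes. Levels across tables, and VEM with VEM+BOR, used 23519 genes found in all tables, scaled by median-of-ratios factors. Named were all 9 genes, overlapping genes, and up to 3 genes per list and comparison with the largest change. The 5 genes most alike in pattern with a mean of at least 100 were named too. Other list genes, such as EEF2, TPT1, UPF1 and EIF4A3, were named after their values were seen. Alternatives were pseudocounts of 0.1 and 5, no filter or a mean of 50, library total, TMM, DESeq2 1.42.0 and edgeR 4.0.16 on recovered reads, 1 fit over all libraries, and leaving out each library. limma was checked on simulated data. Promoters came from RefSeq and transcript starts from GENCODE. Replicate numbers follow accession order and pair nothing.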

Additional observations from a re-analysis of the deposited data

How the results depend on the processing

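Over the comparisons with BOR, VEM, VEM+BOR, and VEM with VEM+BOR, estimates for the 9 host genes kept their direction and their side of the threshold in 378 alternatives, changed sign in 29 and became significant in 7, of which 6 are BOR without BOR 1. The cause was not tested. In the main comparisons limma called 0 genes in BOR, 7 in VEM, 30 in VEM+BOR and 34 in VEM with VEM+BOR. For BOR, DESeq2 called 33. For VEM, counts were 0 with no filter, 40 by library total and 0 in 1 fit over all libraries. For VEM+BOR they were 0 with no filter, 89 by library total, 51 by TMM, 0 in 1 fit, 85 by edgeR and 63 by DESeq2. For VEM with VEM+BOR they were 18 with a pseudocount of 0.1, 2 with no filter, 8 with a mean of 50, 6 by library total, 12 by TMM and 0 in 1 fit. Leaving out each library gave 0 to 4008 genes for BOR (4008 without BOR 1), 0 to 17 for VEM, 0 to 52 for VEM+BOR (0 without either untreated library) and 150 to 804 for VEM with VEM+BOR.

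For GAS5 the BOR change was -0.045 by library total. For SNHG15 the VEM+BOR change, 4.33e-05 in the main fit, was -6.32e-05 with a pseudocount of 5, -0.014 by library total, -0.0050 by TMM, -0.074 by edgeR and -0.057 by DESeq2. Leaving out libraries moved the BOR change between -0.51 and 1.02 for GAS5, -0.094 and 1.31 for SNHG1, -0.29 and 1.53 for SNHG5, -0.34 and 1.30 for SNHG6, -0.31 and 1.43 for SNHG8, -0.15 and 1.88 for SNHG12, -0.46 and 0.27 for SNHG15, and -0.29 and 1.63 for ZFAS1. The VEM change moved between -0.39 and 0.12 for GAS5, -0.86 and 0.12 for SNHG1, -0.66 and 0.23 for SNHG5, -0.24 and 0.10 for SNHG6, -0.43 and 0.13 for SNHG8, -0.56 and 0.16 for SNHG15, and -0.44 and 0.035 for ZFAS1. These are the genes whose sign changed. The VEM+BOR change moved between -0.59 and 0.39 for SNHG1, -0.59 and 0.19 for SNHG12, and -0.35 and 0.37 for SNHG15. Without a change of sign it moved between -0.76 and -0.25 for GAS5, -0.92 and -0.032 for SNHG5, -0.54 and -0.20 for SNHG6, -0.60 and -0.042 for SNHG8, and -0.63 and -0.16 for ZFAS1. With VEM and VEM+BOR together it moved between -0.73 and 0.26 for SNHG1, -0.79 and 0.10 for SNHG5, -0.51 and 0.045 for SNHG8, and -0.45 and 0.27 for SNHG15.

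No paired analysis was possible because the labels give each library a number of its own. edgeR and DESeq2 were not run for VEM, whose reads were not recovered. VEM and VEM+BOR have 1 library each and no spread of their own.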
